A study of Mus musculus with 35 samples.

Results

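The comparison described here sets hearts with a cardiomyocyte deletion of Irs2 that had been through transverse aortic constriction (TAC), in which a suture around the aortic arch makes the left ventricle pump against higher pressure, against sham-operated hearts of the same genotype. All 6 IRS2KO TAC libraries and all 6 IRS2KO sham libraries were used, 12 of the 35 libraries in the series, and the members are the genes measured in them: 27012 genes were listed and 13695 had a mean of at least 10 normalized counts over all libraries and were tested. IRS2KO mice carried alphaMHC-Cre together with IRS2-flox, so recombination is driven by a promoter active in cardiomyocytes and the other cells of the heart keep the gene. The other genotypes, used only to show where the IRS2KO response differs, were IRS1KO (alphaMHC-Cre with IRS1-flox, 12 libraries) and a group named WT that carried IRS2-flox without Cre (11 libraries, of which 5 after TAC). Hearts with Cre and no floxed allele were not analysed here. All mice were of mixed C57Bl/6/FVB background and 6 weeks old, and the apex of the heart was taken on day 3. RNA was sequenced as stranded polyadenylated mRNA, so the values describe messenger RNA of the whole apex, in which fewer cells of a type and less RNA per cell cannot be told apart. Whether the libraries come from separate mice is not stated in the labels, so p-values measure the spread between libraries.

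Insulin receptor substrates are adaptor proteins. The activated insulin or IGF-1 receptor phosphorylates them, they recruit phosphoinositide 3-kinase, and the AKT kinases that follow move the glucose transporter GLUT4 to the surface, favour protein synthesis and keep FoxO transcription factors out of the nucleus. In the heart this pathway supports growth and fuel choice. Pressure overload in rodents is known for re-expression of fetal and stretch-responsive genes, for a shift away from fatty acid oxidation, and for activation of fibroblasts and entry of monocytes in the first days.

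The 12 IRS2KO libraries held 11742562 to 13746724 reads assigned to genes. Between 19400 and 20699 genes had at least 1 read in TAC libraries and between 18599 and 19527 in sham libraries. Cardiomyocyte markers were abundant in every library, with at least 17523 normalized counts of Ryr2 and at least 112022 of Myh6 in TAC hearts, and at least 23986 and 363856 in sham hearts. The atrial markers Bmp10, Myl7 and Sln did not exceed 7.45 normalized counts in any of the 12 libraries.

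TAC libraries were not alike. TAC replicates 1 and 4 stood between the other 4 TAC libraries and the sham libraries on the main axis of variation, which held 78.7% of the variance: their coordinates were 18.2 and -1.9, against 66.1 to 85.2 for TAC replicates 2, 3, 5 and 6 and -57.5 to -49.2 for sham. Of the 545 genes at least 4-fold higher in TAC hearts, TAC replicates 1 and 4 were the lowest TAC libraries for 497, and of the 102 genes at least 4-fold lower they were the highest for 85. The same shares over all genes were not counted, and these libraries were picked from the same data. The share of counts from the mitochondrial genome moved along the same axis. It was 26.1% and 28.0% in TAC replicates 1 and 4 and 15.6% to 20.9% in the other TAC libraries, against 29.6% to 31.3% in sham libraries, and averaged 21.1% ± 4.91 in TAC hearts and 30.4% ± 0.749 in sham hearts (SD, n = 6 each; two-sided exact permutation p = 0.00216, the smallest that 6 against 6 libraries allow). The groups did not overlap. Whether the constriction, the dissection or the RNA of these libraries differed was not tested. Counts are therefore also given without TAC replicates 1 and 4, a choice made after the data had been examined.

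**Figure D1:**
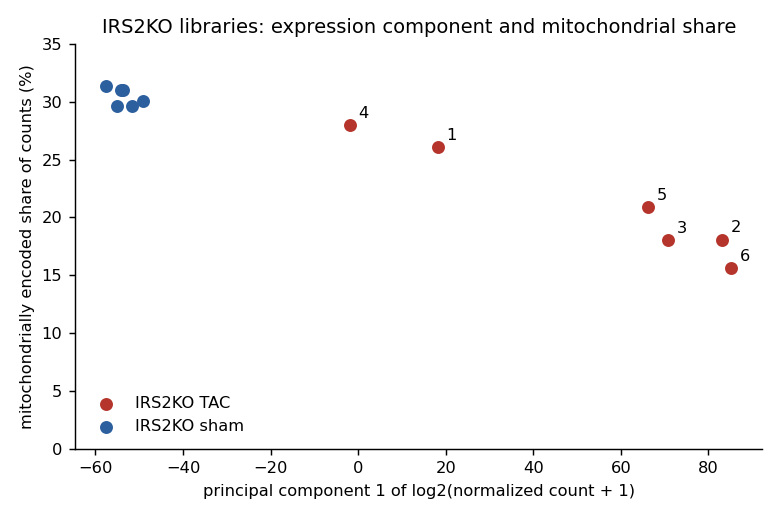
Share of normalized counts from mitochondrially encoded genes (%) against the coordinate on the main axis of variation for the 12 IRS2KO libraries, with TAC libraries in red, numbered by replicate, and sham libraries in blue. The 6 sham libraries lie together at 29.6% to 31.3%, and TAC replicates 4 and 1 lie between them and the other TAC libraries.

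No difference with TAC was detected in the targeted gene or its paralog. Normalized counts are read counts divided by the authors' library size factor, and log2 fold changes, TAC over sham, stand with their SE and limma's p adjusted over all genes. Irs2 had 78.6 to 196 normalized counts in TAC hearts (median 114) and 98.1 to 138 in sham hearts (median 124), log2 fold change -0.09 ± 0.34, adjusted p = 0.838. Over the same gene, WT hearts averaged 239 ± 68.6 normalized counts after TAC and 217 ± 174 after sham (SD, n = 5 and 6), and IRS1KO hearts 396 ± 306 and 317 ± 101 (SD, n = 6 each). The remaining Irs2 reads in IRS2KO hearts come from the whole annotated gene and from all cells of the apex, and the labels do not give the deleted exon. Irs1 had 146 to 343 normalized counts in TAC hearts (median 226) and 215 to 302 in sham hearts (median 234), log2 fold change -0.10 ± 0.68, adjusted p = 0.908, and the groups overlapped for both genes. Each SE comes from a fit over all 6 groups, IRS1KO hearts among them, and is not the spread of the IRS2KO libraries alone. With only the IRS2KO groups in the fit, the adjusted p was 0.666 for Irs1 and 0.698 for Irs2 (limma).

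Most of the transcriptome moved. Of 13695 genes tested, 4286 (31.3%) were higher and 4260 (31.1%) lower in TAC hearts at an adjusted p under 0.05, together 8546 (62.4%), and 1472 (10.7%) were higher and 770 (5.62%) lower by at least 2-fold as well. Without TAC replicates 1 and 4 the counts were 4653 higher and 4598 lower, and 8341 of the 8546 calls were kept in their direction. The number lower by at least 2-fold came to 1318 without those libraries. TAC and sham libraries did not overlap for 2148 genes (15.7%) with TAC higher and 1865 (13.6%) with TAC lower. With so many genes called, a list of genes is described below by how many of its tested members were called. Each such count is to be read beside the 31.3% higher and 31.1% lower of all genes. A count near those shares shows no pattern particular to the list. Directions depend on the scaling of the libraries. With the authors' scaling the median log2 fold change was -0.01; when libraries were instead given equal totals, the median gene stood at 0.33 on the log2 scale, and 7438 genes were higher and 1890 lower. Changes smaller than that shift are read with this in mind.

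The genes given with this comparison as its markers were Pdk4, Klf15 and Tnc, and all had TAC and sham libraries apart. Pdk4, the kinase that switches off pyruvate dehydrogenase and so spares glucose, had 3284 to 9739 normalized counts in TAC hearts (median 5195) and 27088 to 41312 in sham hearts (median 31382), and was 5.699-fold lower in TAC hearts (log2 fold change -2.58 ± 0.38, adjusted p = 8.66e-07). Klf15, a transcription factor that favours amino acid and lipid use in muscle, had 77.1 to 449 normalized counts in TAC hearts (median 209) and 597 to 905 in sham hearts (median 799), 3.34-fold lower (log2 fold change -1.95 ± 0.30, adjusted p = 2.04e-06). Tnc, the matrix glycoprotein tenascin C that appears in injured myocardium, had 685 to 11088 normalized counts in TAC hearts (median 7601) and 12.04 to 29.5 in sham hearts (median 22.8), 288-fold higher (log2 fold change 7.53 ± 0.51, adjusted p = 4.38e-13). Tnc in TAC replicates 1 and 4 was 964 and 685, against 6987 or more in each of the other TAC hearts, and without those libraries the fold was 413. Pdk4 was below every sham heart in TAC replicates 1 and 4 too, with 6851 and 9739 against 27088 in the lowest sham heart.

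**Figure D2:**
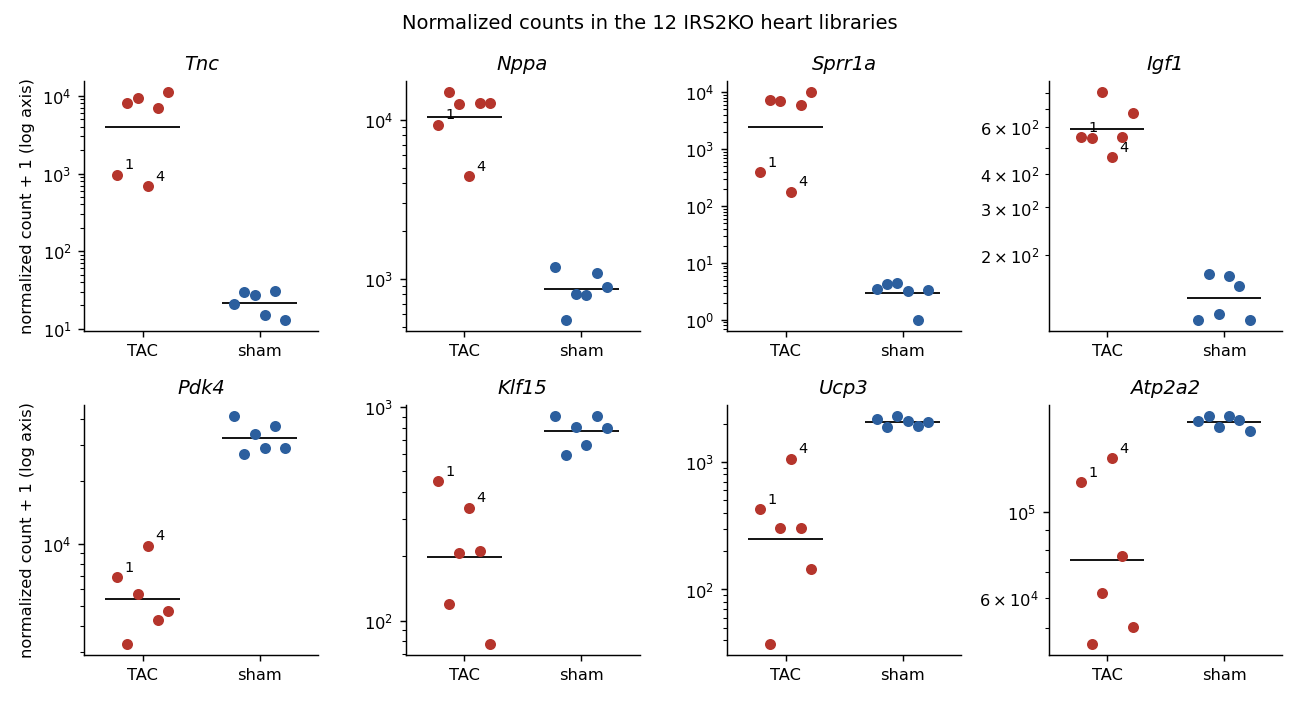
Normalized counts plus 1 on a log axis for 8 genes in each IRS2KO library, TAC left in red and sham right in blue, with a line at the mean of the log values and TAC replicates 1 and 4 numbered. TAC and sham libraries are apart for each of these genes, and replicates 1 and 4 lie nearest to sham for Tnc, Sprr1a, Ucp3 and Atp2a2.

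The largest rises, among genes with a mean of at least 100 normalized counts in the higher group, were Sprr1a, Spp1, Tnc, Cthrc1, P4ha3, Cemip, Tubb3, Col12a1, Adam12, Timp1, Ccnb1, Chil3, Serpinb1c, Postn and Ltbp2. Most belong to the matrix and fibroblast lists given further on. Adam12, a membrane metalloprotease, had 64.1 to 642 normalized counts in TAC hearts (median 439.6) and 3.37 to 11.9 in sham hearts (median 5.02) (63.5-fold, log2 fold change 5.49 ± 0.44, adjusted p = 1.59e-11), and Serpinb1c, a protease inhibitor, 48.9 to 179.6 normalized counts in TAC hearts (median 145) and 1.08 to 3.19 in sham hearts (median 1.83) (log2 fold change 5.30 ± 0.41, adjusted p = 5.89e-12). Among the largest falls were Ces1d, Tmem179, Ppl, Klhl33, Cyp26b1, Ucp3, Lgals4, Scn4b, Arrdc2, Mylk4, Efnb3, Acot1, Tmem82 and Cacna1s. Cyp26b1, an enzyme that breaks down retinoic acid, had 4.995 to 31.01 normalized counts in TAC hearts (median 14.3) and 92.2 to 146 in sham hearts (median 130.1) (7.695-fold lower, log2 fold change -3.07 ± 0.40, adjusted p = 1.73e-07). Lgals4, galectin-4, had 23.3 to 172 normalized counts in TAC hearts (median 61.1) and 317 to 859 in sham hearts (median 452) (6.65-fold lower), and the membrane ligand Efnb3 36.7 to 922 normalized counts in TAC hearts (median 200.2) and 1223 to 1557 in sham hearts (median 1348) (3.96-fold lower). Efnb3 was 619 and 922 in TAC replicates 1 and 4, against at most 208 in the other TAC hearts. TAC and sham libraries were apart for all of these genes.

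Stress and fetal genes rose almost without exception: 15 of 16 tested were higher, with a median log2 fold change of 2.09, and 13 had TAC and sham libraries apart. Sprr1a, a cornified-envelope protein also made by cardiomyocytes under stress, had 179 to 9962 normalized counts in TAC hearts (median 6511) and 0 to 3.37 in sham hearts (median 2.43). Sham libraries held at most 3.37 normalized counts of it, too few for a ratio (log2 fold change 9.69 ± 0.81, adjusted p = 3.92e-11), and TAC replicates 1 and 4 held 389.7 and 179, far below the 5926 or more of the others. Nppb, which encodes the hormone BNP, had 2790.2 to 15264 normalized counts in TAC hearts (median 6378) and 814 to 1735 in sham hearts (median 1266) (5.898-fold, log2 fold change 2.39 ± 0.29, adjusted p = 4.66e-08). Ankrd1, a titin-associated stretch sensor, had 28714 to 45987 normalized counts in TAC hearts (median 39060.3) and 6593 to 11913 in sham hearts (median 8940.4) (4.17-fold, log2 fold change 2.09 ± 0.21, adjusted p = 2.18e-09). It was as high in TAC replicate 1, at 39429, as in the other TAC hearts. Acta1, the skeletal actin of fetal heart, had 13530.4 to 31126 normalized counts in TAC hearts (median 19961) and 4621 to 7460.3 in sham hearts (median 5131) (3.75-fold, log2 fold change 1.88 ± 0.28, adjusted p = 1.20e-06), and TAC replicate 4, with 31126, was the highest of all 12 libraries. Myh7, the slow beta myosin heavy chain, rose 3.79-fold with 4052 to 17778 normalized counts in TAC hearts (median 7219.6) and 1664 to 3476 in sham hearts (median 1939). Rtn4, which encodes the reticulon Nogo, rose 9.09-fold, Rcan1, an inhibitor and target of calcineurin, 3.69-fold, and the actin-binding Xirp2 5.796-fold. Gdf15, a secreted stress hormone, had 7.13 to 306 normalized counts in TAC hearts (median 118) and 1.06 to 11.5 in sham hearts (median 6.097), and here the groups overlapped because TAC replicate 4 held 7.13 (log2 fold change 3.62 ± 0.69, adjusted p = 3.90e-05). Bag3, a co-chaperone of the Z-disc, was the member not called (log2 fold change 0.03 ± 0.08, adjusted p = 0.789).

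Upstream stretches of 3 of these genes are shown because each holds CATTCC, the letters of the M-CAT element that TEAD factors are known to bind in muscle genes. The sequences are from RefSeq on GRCm38.p6, 5′ to 3′ on the strand of the gene and ending at the base before the annotated start, with the match to CATTCC on either strand in capitals.
Acta1, chr8:123894776-123894895, minus strand: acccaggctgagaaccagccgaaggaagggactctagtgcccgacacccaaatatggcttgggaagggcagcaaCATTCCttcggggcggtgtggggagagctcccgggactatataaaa
Nppb, chr4:147985780-147985899, plus strand: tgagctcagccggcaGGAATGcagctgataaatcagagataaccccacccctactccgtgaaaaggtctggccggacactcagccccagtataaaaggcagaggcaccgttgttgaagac
Ankrd1, chr19:36119845-36120064, minus strand: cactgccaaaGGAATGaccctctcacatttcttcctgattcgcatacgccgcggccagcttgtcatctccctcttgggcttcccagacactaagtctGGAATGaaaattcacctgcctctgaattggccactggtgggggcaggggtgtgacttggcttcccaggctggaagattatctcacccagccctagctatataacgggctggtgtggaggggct
In the 250 bases before the start, searched on both strands, CATTCC was found in 7 of the 23 promoters listed for 15 of the 16 tested members, beside 12.6% of all 32851 promoters in the table. A match of 6 letters is a description of the sequence and does not show binding.

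Most contractile genes moved the other way. In the list of sarcomere and Z-disc genes, 17 of 24 were lower and 2 higher (median -0.79 on the log2 scale). That list also counts Mb and the creatine kinases Ckm and Ckmt2, which serve energy supply. All of these were lower (-1.565, -1.51 and -1.21) and are among the 17. Scaling libraries to the same total left 14 lower and 4 higher (median -0.45), and quantile normalization 13 lower and 5 higher (median -0.39). Myh6, the fast alpha myosin heavy chain of adult mouse ventricle, had 112022 to 359025 normalized counts in TAC hearts (median 165488) and 363856 to 405979.7 in sham hearts (median 385508) (log2 fold change -1.01 ± 0.22, adjusted p = 2.61e-04). TAC replicates 1 and 4 held 316394 and 359025, and with quantile normalization Myh6 did not pass (log2 fold change -0.32, adjusted p = 0.0652, limma). Tcap, the titin cap, fell 2.63-fold, the oxygen store Mb 2.52-fold and the ventricular light chain Myl2 2.33-fold. Mylk4, a myosin light chain kinase-family member, fell most, with 126 to 1679.6 normalized counts in TAC hearts (median 505) and 2889 to 4547 in sham hearts (median 3188) (log2 fold change -2.78 ± 0.45, adjusted p = 4.45e-06), and was 1293 and 1679.6 in TAC replicates 1 and 4. Des, the muscle intermediate filament desmin, rose 2.66-fold, with 31315 to 93102 normalized counts in TAC hearts (median 64694) and 22079 to 24741 in sham hearts (median 22984). Actn2 and Tnnc1 had log2 fold changes of 0.00 and -0.01 and were not called.

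Most potassium and sodium channel genes fell, and calcium handling genes were mixed. Of 15 calcium handling genes, 8 were lower and 2 higher (median log2 fold change -0.40), but 6 were lower and 6 higher with libraries scaled to the same total (median -0.06). Atp2a2, the sarcoplasmic reticulum calcium pump SERCA2, had 45704 to 137687 normalized counts in TAC hearts (median 69346) and 162328 to 177249 in sham hearts (median 172306) (2.09-fold lower, log2 fold change -1.19 ± 0.20, adjusted p = 5.20e-06). Hrc, a calcium-binding protein of the reticulum, fell 3.54-fold and Pln, the pump's inhibitor phospholamban, 2.01-fold. Slc8a1, the sodium-calcium exchanger, rose 1.92-fold (log2 fold change 0.92 ± 0.15, adjusted p = 3.57e-06). Of 22 potassium and sodium channel genes, 18 were lower and 4 higher (median -1.09). Kcnip2, the subunit that shapes the transient outward current, had 193 to 1365 normalized counts in TAC hearts (median 465) and 2005 to 2419 in sham hearts (median 2331) (log2 fold change -2.19 ± 0.39, adjusted p = 1.86e-05), and Scn4b, a sodium channel beta subunit, had 12.5 to 347 normalized counts in TAC hearts (median 59.4) and 413 to 545 in sham hearts (median 486) (log2 fold change -2.92 ± 0.54, adjusted p = 2.54e-05). Scn4b was 212 and 347 in TAC replicates 1 and 4 and at most 76.3 in the others. Cacna1s, a calcium channel better known from skeletal muscle, fell 5.14-fold.

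Fuel genes fell together. All 29 fatty acid uptake and oxidation genes tested were lower, 28 with TAC and sham libraries apart, with a median log2 fold change of -1.26. Uptake and activation were touched (Cd36, 2.05-fold lower; Acsl1, 2.32-fold), as were the carnitine shuttle (Slc25a20, 2.17-fold; Cpt2, 2.25-fold) and the oxidation steps (Acadm, 2.699-fold; Hadh, 2.88-fold). Ucp3, a mitochondrial carrier induced by fatty acids, had 36.6 to 1067 normalized counts in TAC hearts (median 304) and 1893 to 2297 in sham hearts (median 2081) (log2 fold change -3.06 ± 0.50, adjusted p = 5.42e-06). TAC replicate 4 kept 1067 and replicate 1 428. Cpt1a, a gate for fatty acid entry that dominates outside adult heart muscle, had the smallest change of the list at -0.24, and stood at 0.10 with libraries scaled to the same total. Acot1, a thioesterase in a cluster of similar genes between which reads may be shared, had 8.23 to 61.1 normalized counts in TAC hearts (median 14.2) and 102 to 140.4 in sham hearts (median 117) (log2 fold change -2.72 ± 0.41, adjusted p = 1.72e-06).

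Lipid storage and lipase genes fell in 11 of 15 and rose in 2. Ces1d, a triglyceride hydrolase, had the largest fall of any gene named here, with 8.33 to 183 normalized counts in TAC hearts (median 33.3) and 577 to 750.4 in sham hearts (median 620.1) (log2 fold change -4.36 ± 0.53, adjusted p = 4.66e-08), and 183 of it remained in TAC replicate 4. Lpl, the lipase that releases fatty acids from plasma lipoproteins, fell 2.104-fold and Plin5, which coats lipid droplets in oxidative tissue, 3.06-fold. Angptl4, a lipase inhibitor, rose 1.92-fold (log2 fold change 0.80 ± 0.34, adjusted p = 0.0444), its libraries overlapped, and the call was lost when each of TAC replicates 2, 3, 5 and 6 and sham replicates 2, 4, 5 and 6 was left out in turn (limma, adjusted p = 0.0568 to 0.15).

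Transcription regulators of these genes were lower in 14 of 17 and higher in none (median log2 fold change -0.67). Scaling libraries to the same total left 9 lower and 2 higher (median -0.33). Ppargc1a, the coactivator PGC-1alpha, had 468 to 2194 normalized counts in TAC hearts (median 818) and 2324 to 3502 in sham hearts (median 2853) (2.52-fold lower, log2 fold change -1.58 ± 0.34, adjusted p = 1.66e-04). The nuclear receptors Rxrg (2.45-fold), Ppara (1.87-fold) and Pparg (2.02-fold) fell, while Ppard and Ppargc1b were not called, at -0.08 and -0.07. Ketone and branched-chain amino acid genes fell in 18 of 20 (median -1.0), with Bckdha, a subunit of the branched-chain keto acid dehydrogenase, at 177 to 593 normalized counts in TAC hearts (median 306) and 796 to 943 in sham hearts (median 899.9) (2.51-fold lower, log2 fold change -1.44 ± 0.21, adjusted p = 7.93e-07). Bdh1 and Bcat2 were not called (-0.04 and -0.17).

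Respiratory chain and citrate cycle genes shifted by similar amounts. All 36 complex I genes, 34 of 36 genes of complexes II to V and 16 of 17 tricarboxylic acid cycle genes were lower, with median log2 fold changes of -0.83, -0.85 and -0.81. Idh2, the mitochondrial NADP-linked isocitrate dehydrogenase, had 4059 to 15369 normalized counts in TAC hearts (median 7504) and 21265 to 25905 in sham hearts (median 23933) (log2 fold change -1.57 ± 0.25, adjusted p = 4.22e-06), and Cox7a1, the muscle isoform of a cytochrome oxidase subunit, fell 2.48-fold. Cox6a1, the isoform found outside striated muscle, rose 1.44-fold with 897 to 1249 normalized counts in TAC hearts (median 998) and 689 to 846 in sham hearts (median 714), while its muscle counterpart Cox6a2 fell 1.86-fold. All 13 mitochondrially encoded mRNAs were lower (log2 fold changes of -1.03 to -0.73), of which 12 passed with libraries scaled to the same total and 7 with quantile normalization. Copies of mitochondrial sequence in the nuclear genome can share their reads. TAC replicate 4 was nearest to sham for each of these lists, with a mean log2 difference from sham of -0.24 over complex I genes and -0.28 over tricarboxylic acid cycle genes, against -1.34 and -1.38 in TAC replicate 6.

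Pyruvate entry genes were lower in 13 of 14. Pdk2, another kinase of pyruvate dehydrogenase, fell 2.19-fold and Pdp2, the phosphatase that reverses it, 2.97-fold. Pdk3 rose, with 38.7 to 116 normalized counts in TAC hearts (median 107) and 18.1 to 33.3 in sham hearts (median 22.9) (3.64-fold, log2 fold change 1.73 ± 0.25, adjusted p = 7.19e-07). Glycolysis genes were mixed: 8 of 25 rose and 12 fell, beside 31.3% higher and 31.1% lower over all genes. Their median was -0.18 and became 0.15 with libraries scaled to the same total, where 12 rose and 8 fell. Slc16a3, a lactate exporter, had 40.7 to 345 normalized counts in TAC hearts (median 213) and 17.95 to 30.1 in sham hearts (median 25.4) (8.004-fold, log2 fold change 2.65 ± 0.40, adjusted p = 1.31e-06), and Slc2a1, the glucose transporter GLUT1, Pfkp, the platelet-type phosphofructokinase, and Pgam1 rose 2.56-, 2.498- and 2.45-fold. Muscle-type isoforms fell: Pfkm 2.15-fold, Eno3 2.24-fold, Pygm, the muscle glycogen phosphorylase, 2.14-fold, and Pfkfb1 with 12.5 to 101 normalized counts in TAC hearts (median 30.99) and 133 to 192 in sham hearts (median 179) (log2 fold change -2.38 ± 0.30, adjusted p = 8.18e-08). Hk2 and Pkm were not called (0.15 and -0.08), though both passed as higher with libraries scaled to the same total and with quantile normalization.

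**Figure D3:**
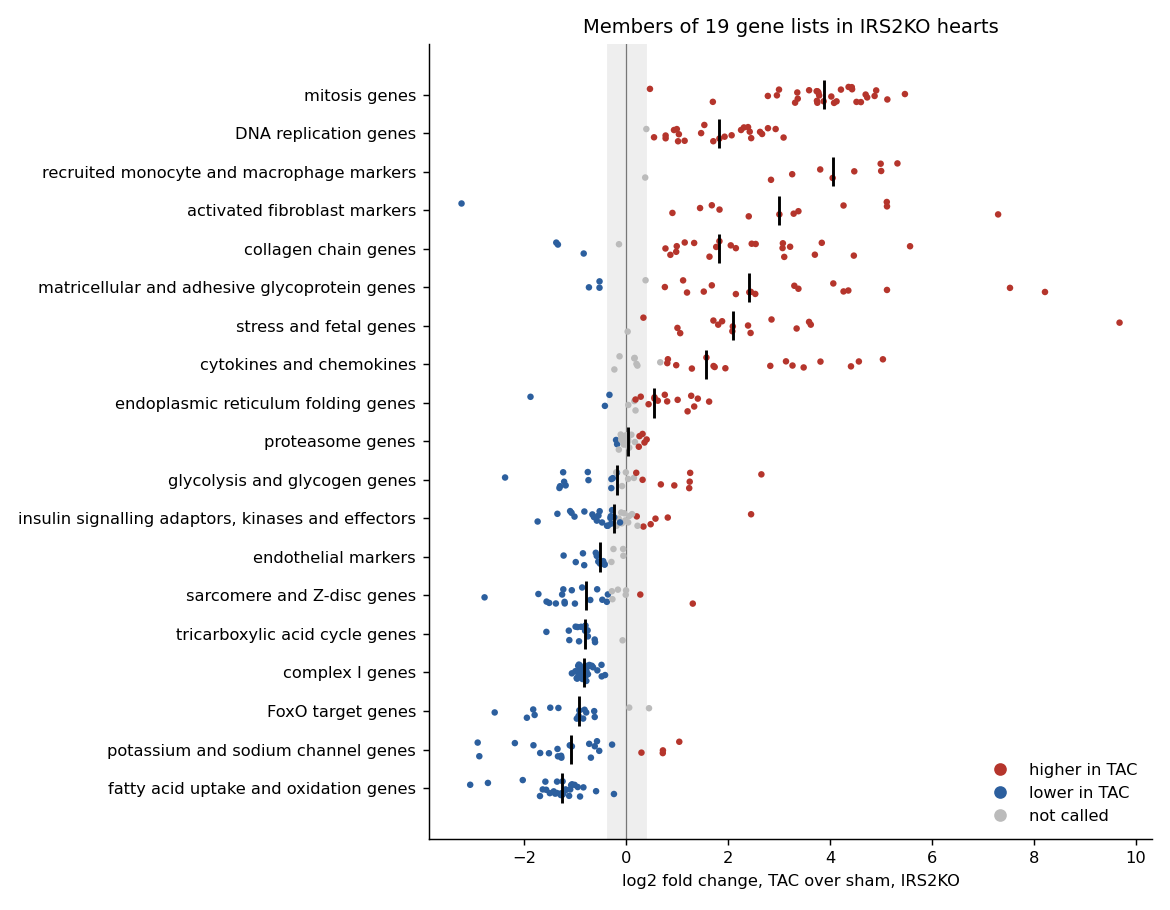
Log2 fold change, TAC over sham in IRS2KO hearts, of each tested member of 19 gene lists, coloured by call, with the list median as a black bar and the middle 50% of all genes tested as a grey band. Mitosis, activated fibroblast and recruited monocyte genes lie farthest to the right and fatty acid genes farthest to the left.

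Genes of the insulin pathway were mixed. Of the ligands, receptors and binding proteins, 2 of 10 rose and 4 fell, and with libraries scaled to the same total 5 rose and 3 fell. Igf1, the growth factor that also signals through IRS proteins, had 460.1 to 806 normalized counts in TAC hearts (median 547) and 113 to 168 in sham hearts (median 135) (4.304-fold, log2 fold change 2.10 ± 0.16, adjusted p = 3.40e-12), and TAC replicates 1 and 4 held 547 and 460.1, within the range of the other TAC hearts or just under it. Igfbp7 rose 2.29-fold. Insr, the insulin receptor, had 972 to 2013 normalized counts in TAC hearts (median 1232) and 1942 to 2429 in sham hearts (median 2299) (1.58-fold lower, log2 fold change -0.70 ± 0.14, adjusted p = 9.26e-05), while Igf1r stood at 0.00 and was not called. Igf2 fell 1.61-fold.

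Downstream of the receptors, 20 of 37 adaptors, kinases and effectors fell and 6 rose, with a median of -0.24 that became 0.10 with libraries scaled to the same total, where 9 fell and 15 rose. Pik3ip1, an inhibitor of phosphoinositide 3-kinase, had 107 to 409 normalized counts in TAC hearts (median 287) and 622 to 1099 in sham hearts (median 818) (3.04-fold lower, log2 fold change -1.74 ± 0.23, adjusted p = 2.80e-07), and Pik3r1, the p85alpha regulatory subunit, fell 1.89-fold. Slc2a4, which encodes GLUT4, had 1399 to 4878 normalized counts in TAC hearts (median 2436) and 4934 to 5863 in sham hearts (median 5719) (log2 fold change -1.10 ± 0.21, adjusted p = 4.97e-05), and Akt2, the AKT isoform tied to glucose uptake, fell 1.48-fold, a change smaller than that of Slc2a4. Akt1 (-0.19) and Pdpk1 (0.04) were not called, and Akt1 passed as lower without TAC replicates 1 and 4 (-0.37) and without either of them alone (-0.26 each). Grb14, an adaptor that inhibits the insulin receptor, fell 1.98-fold, and Foxo3, Foxo4 and Foxo1 fell 2.39-, 1.74- and 1.56-fold. Of those that rose, Socs3, a cytokine-induced inhibitor that also binds IRS proteins, had 55.99 to 324 normalized counts in TAC hearts (median 280.2) and 16.9 to 60.3 in sham hearts (median 35.2) (6.29-fold, log2 fold change 2.45 ± 0.36, adjusted p = 9.07e-07). Ptpn1, the phosphatase PTP1B, rose 1.79-fold.

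Of 16 genes known as FoxO targets, 14 fell and none rose, with a median of -0.93 that became -0.59 with libraries scaled to the same total, where 2 rose. Without TAC replicates 1 and 4, 14 fell and 1 rose. Pdk4 and Klf15 belong to this list. Sesn1, a stress-induced inhibitor of mTORC1, had 349 to 1792 normalized counts in TAC hearts (median 871) and 2232 to 3862 in sham hearts (median 2875) (3.16-fold lower, log2 fold change -1.83 ± 0.28, adjusted p = 2.14e-06). Txnip, which holds back glucose uptake, had 2247 to 6272 normalized counts in TAC hearts (median 3486) and 8909 to 11398 in sham hearts (median 10547) (log2 fold change -1.49 ± 0.23, adjusted p = 2.01e-06). The muscle ubiquitin ligases Fbxo32 and Trim63 fell 2.27- and 1.88-fold, Cat, catalase, 1.69-fold, and the autophagy genes Bnip3 and Gabarapl1 1.77- and 1.56-fold. Bcl6, a transcriptional repressor, lay just outside the threshold (log2 fold change 0.45 ± 0.20, adjusted p = 0.0506). It passed as higher with edgeR (adjusted p = 0.0116), with DESeq2 (adjusted p = 0.00954) and without TAC replicates 1 and 4 (log2 fold change 0.87, adjusted p = 4.66e-06), and also without TAC replicate 1, TAC replicate 4, sham replicate 1 or sham replicate 5 alone (log2 fold changes of 0.49 to 0.65). Sesn3 was not called (0.06). Several of these genes are also controlled by glucocorticoids and by lipid-sensing receptors, and the list does not separate those inputs.

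Most matrix genes rose. Of 25 collagen chain genes, 21 were higher (median 1.83) and 3 lower. Col12a1, a chain that decorates fibrils, had 254 to 2066 normalized counts in TAC hearts (median 1365) and 13.5 to 28.9 in sham hearts (median 20.3) (59.7-fold, log2 fold change 5.57 ± 0.38, adjusted p = 5.06e-13). The main fibrillar chains Col1a1 and Col3a1 had 4869.8 to 35619 normalized counts in TAC hearts (median 24187) and 1224 to 1634 in sham hearts (median 1372), and 12819 to 40369 normalized counts in TAC hearts (median 30957) and 3001 to 3827 in sham hearts (median 3118), with folds of 15.9 and 8.899. Col11a1 had 5.09 to 154 normalized counts in TAC hearts (median 79.7) and 1.08 to 2.13 in sham hearts (median 1.22), too few in sham hearts for a ratio. The 3 chains that fell were Col4a3 (2.097-fold), Col4a4 (1.56-fold), both basement membrane chains, and Col6a6 (2.22-fold), while Col4a1 and Col4a2 rose 2.04- and 1.86-fold.

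Matricellular and adhesive glycoproteins rose in 17 of 21. Spp1, osteopontin, had 217 to 3561 normalized counts in TAC hearts (median 1042) and 0 to 4.49 in sham hearts (median 2.799) (log2 fold change 8.22 ± 0.79, adjusted p = 5.64e-10), Postn, periostin, 7964 to 32299 normalized counts in TAC hearts (median 20163) and 442 to 619.9 in sham hearts (median 528) (37.8-fold, log2 fold change 5.12 ± 0.24, adjusted p = 7.81e-17), and Thbs1, which can release active TGF-beta, 468 to 3643 normalized counts in TAC hearts (median 2749.5) and 62.5 to 95.7 in sham hearts (median 78.6) (27.4-fold). Spp1 was high in TAC replicate 1, at 1187, and lowest in replicate 4, at 217. Dcn, a proteoglycan of quiescent fibroblasts, fell 1.37-fold, but did not pass with libraries scaled to the same total (log2 fold change -0.19, adjusted p = 0.101, limma). Among crosslinking enzymes, proteases and inhibitors, 26 of 33 rose and 4 fell. Lox, which crosslinks collagen, had 548 to 5468 normalized counts in TAC hearts (median 4304) and 75.5 to 154 in sham hearts (median 119.98) (29.9-fold, log2 fold change 4.56 ± 0.38, adjusted p = 3.63e-11). Timp1, an inhibitor of matrix proteases, had 313 to 2785 normalized counts in TAC hearts (median 2229) and 23.1 to 38.5 in sham hearts (median 28.4) (60.2-fold, log2 fold change 5.47 ± 0.46, adjusted p = 4.89e-11). Timp4, the inhibitor with the strongest link to adult heart, moved the other way, with 38.2 to 577 normalized counts in TAC hearts (median 246) and 1095 to 1369.8 in sham hearts (median 1169) (3.94-fold lower, log2 fold change -2.39 ± 0.41, adjusted p = 1.14e-05). P4ha3, a collagen prolyl hydroxylase, had 11.2 to 225 normalized counts in TAC hearts (median 139) and 0 to 1.28 in sham hearts (median 0), and Cemip, which takes part in hyaluronan breakdown, 11.2 to 346 normalized counts in TAC hearts (median 107) and 0 to 1.23 in sham hearts (median 0.532), both too low in sham hearts for a ratio. Mmp2 was not called (-0.29), but passed as lower without TAC replicate 1 (-0.42) and without TAC replicates 1 and 4 (-0.51).

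Activated fibroblast markers rose, and resting ones were mixed. Of 13 activated fibroblast markers, 12 rose and 1 fell, all 13 with TAC and sham libraries apart (median 3.01). Cthrc1, a secreted protein of injury-activated fibroblasts, had 86.5 to 1265 normalized counts in TAC hearts (median 630.2) and 1.23 to 3.19 in sham hearts (median 2.201) (log2 fold change 7.30 ± 0.49, adjusted p = 4.38e-13). Meox1, a transcription factor of activated fibroblasts, had 400.1 to 1354 normalized counts in TAC hearts (median 1063) and 73.4 to 155 in sham hearts (median 110.3) (8.598-fold, log2 fold change 3.01 ± 0.27, adjusted p = 1.19e-10), and Ltbp2 rose 42.01-fold. Wif1, a secreted Wnt inhibitor, was the member that fell, with 0 to 7.24 normalized counts in TAC hearts (median 1.21) and 10.8 to 32.3 in sham hearts (median 24.98). Of 11 resting fibroblast markers, 6 fell and 3 rose (median -0.50), but 4 fell and 4 rose with libraries scaled to the same total (median -0.16). Gsn, gelsolin, had 2005 to 9282 normalized counts in TAC hearts (median 3231) and 14844 to 19131 in sham hearts (median 16185) (3.59-fold lower, log2 fold change -2.07 ± 0.27, adjusted p = 2.22e-07), Scara5 fell 4.396-fold and Clec3b 2.31-fold, whereas Tcf21, the lineage factor, rose 2.09-fold and Pdgfra was not called (0.03). The summed level of the activated markers was 16380 to 49970 normalized counts in TAC hearts and 2631 to 3306 in sham hearts, lowest of the TAC hearts in replicate 4. Among TGF-beta and activin genes 13 of 22 rose and 6 fell, or 16 and 1 with libraries scaled to the same total. Tgfb2 was 8.11-fold and Fstl1 6.01-fold higher and the co-receptor Tgfbr3 1.83-fold lower.

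Cell division genes had the largest median of the lists examined after that of recruited monocyte markers. All 31 mitosis genes rose (median 3.88), 30 with TAC and sham libraries apart, as did 24 of 25 DNA replication genes (median 1.83). Ccnb1, cyclin B1, had 42.8 to 216 normalized counts in TAC hearts (median 164) and 0 to 3.85 in sham hearts (median 2.29) (log2 fold change 5.47 ± 0.40, adjusted p = 2.64e-12). Mki67, the proliferation marker Ki-67, had 350.2 to 1319.6 normalized counts in TAC hearts (median 999) and 24.4 to 43.8 in sham hearts (median 33.99) (26.9-fold, log2 fold change 4.61 ± 0.36, adjusted p = 7.85e-12), and Top2a 238 to 806 normalized counts in TAC hearts (median 684) and 13.5 to 20.5 in sham hearts (median 17.6) (33.4-fold). All were present in TAC replicates 1 and 4, with 560.2 and 350.2 normalized counts of Mki67. Mcm5, a helicase subunit, had 83.5 to 287 normalized counts in TAC hearts (median 222) and 19.1 to 34.5 in sham hearts (median 29.2) (7.04-fold, log2 fold change 2.63 ± 0.34, adjusted p = 1.33e-07). The tubulin gene Tubb3, better known from neurons, had 38.7 to 405 normalized counts in TAC hearts (median 329) and 0 to 7.45 in sham hearts (median 3.13) (76.8-fold). Among cell cycle inhibitors 3 of 8 rose and 3 fell: Cdkn1c, p57, had 14.97 to 63.1 normalized counts in TAC hearts (median 30.9) and 78.6 to 133 in sham hearts (median 113) (3.39-fold lower), and Cdkn1a, p21, was not called. These values do not say which cells were dividing.

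Upstream stretches of 3 mitosis genes are given for their CCAAT boxes, which the factor NF-Y is known to bind in promoters of genes used late in the cell cycle. The source, build and direction are as above, and matches to CCAAT on either strand are in capitals.
Ccnb1, chr13:100786487-100786606, minus strand: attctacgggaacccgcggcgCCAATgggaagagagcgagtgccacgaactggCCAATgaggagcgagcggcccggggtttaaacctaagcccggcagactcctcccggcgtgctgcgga
Ccnb2, chr9:70421555-70421674, minus strand: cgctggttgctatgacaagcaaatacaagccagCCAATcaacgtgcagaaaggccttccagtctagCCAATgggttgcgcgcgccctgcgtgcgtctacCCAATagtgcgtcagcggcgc
Cdc20, chr4:118437344-118437463, minus strand: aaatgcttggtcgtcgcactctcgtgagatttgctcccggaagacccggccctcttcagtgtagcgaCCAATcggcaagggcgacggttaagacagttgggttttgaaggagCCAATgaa
CCAAT was found within 250 bases before the start in 23 of 29 promoters listed for 27 of the 31 tested mitosis genes, beside 33.8% of all promoters in the table. TTTGAA, the letters of the cell cycle homology region, was found in 10 of the 29, beside 16.0% of all, and in the Cdc20 stretch it overlaps no CCAAT box. All 3 genes shown rose, Ccnb2 with 31.6 to 181 normalized counts in TAC hearts (median 149) and 2.41 to 6.41 in sham hearts (median 4.403) and Cdc20 with 46.8 to 196 normalized counts in TAC hearts (median 164) and 7.55 to 16.9 in sham hearts (median 12.6).

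Immune cell markers rose for monocytes and macrophages. General macrophage markers were higher in 9 of 10, recruited monocyte and macrophage markers in 8 of 9 (median 4.05) and resident macrophage markers in 4 of 9, and none of these lists had a member that fell. Ccr2, the receptor that brings monocytes to inflamed tissue, had 99.8 to 820.1 normalized counts in TAC hearts (median 571) and 6.74 to 30.8 in sham hearts (median 11.2) (36.7-fold, log2 fold change 4.99 ± 0.47, adjusted p = 4.49e-10). Arg1, an arginase of reparative macrophages, had 3.101 to 202 normalized counts in TAC hearts (median 71.5) and 0 to 2.46 in sham hearts (median 0), and Chil3 10.2 to 217 normalized counts in TAC hearts (median 109) and 0 to 2.13 in sham hearts (median 0.562), both near 0 in sham hearts. Lgals3, galectin-3, had 152 to 1403 normalized counts in TAC hearts (median 788) and 14.4 to 35.7 in sham hearts (median 26.8) (28.1-fold). Of the resident markers, Cx3cr1, also carried by monocytes, had 78.4 to 389.99 normalized counts in TAC hearts (median 274) and 12.04 to 45.7 in sham hearts (median 26.3) (10.2-fold, log2 fold change 3.28 ± 0.40, adjusted p = 6.14e-08), while Lyve1 (-0.57), Timd4 (-0.64) and Folr2 (0.54) were not called. Without TAC replicates 1 and 4, Lyve1 and Timd4 passed as lower. The macrophage lists were lowest of the TAC hearts in replicate 4, with a summed level of 909 normalized counts over the recruited markers, against up to 4718 in TAC hearts and 379 to 574 in sham hearts.

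Neutrophil and T cell markers were low or mostly untested. Of 10 neutrophil markers 2 were tested and Csf3r was called, with 22.4 to 128 normalized counts in TAC hearts (median 89.2) and 3.69 to 16.9 in sham hearts (median 10.5); Ngp was at 0 in all 6 TAC libraries and Camp in 5, and Ly6g was not among the genes listed. Among the members under the filter, the highest values were 16.65 in TAC and 2.565 in sham hearts for Cxcr2, 17.48 and 1.282 for Mmp8, and 13.32 and 1.282 for Il1r2. Of 12 T and NK cell markers 1 was tested and none was called, and the T cell receptor subunit Cd3e had at most 3.34 normalized counts in TAC hearts and 2.16 in sham hearts. Of 7 B cell markers 2 were tested, and Blk, a kinase of B cells, rose (log2 fold change 1.39 ± 0.28, adjusted p = 8.79e-05). Of 6 antigen presentation and dendritic cell markers tested, 2 rose and 1 fell, and without TAC replicates 1 and 4, or with libraries scaled to the same total, 5 rose and 1 fell. Itgax, the integrin CD11c, had 18.3 to 109 normalized counts in TAC hearts (median 57.2) and 0 to 4.49 in sham hearts (median 3.52) (log2 fold change 3.95 ± 0.48, adjusted p = 4.94e-08), whereas Clec9a, a receptor of cross-presenting dendritic cells, fell (log2 fold change -0.98 ± 0.16, adjusted p = 3.39e-06). Cytokine and chemokine genes rose in 16 of 23 tested (median 1.57) and none fell. Ccl2, which attracts Ccr2-bearing monocytes, had 33.1 to 417 normalized counts in TAC hearts (median 149) and 2.46 to 6.02 in sham hearts (median 4.08) (41.1-fold, log2 fold change 4.57 ± 0.64, adjusted p = 5.12e-07), Il1rn, the interleukin-1 receptor antagonist, 18.4 to 206 normalized counts in TAC hearts (median 37.3) and 0 to 1.28 in sham hearts (median 0), and Lif, a cytokine of the interleukin-6 family, 13.4 to 125 normalized counts in TAC hearts (median 52.5) and 0 to 6.47 in sham hearts (median 2.27). Il6 itself reached 20.9 normalized counts at most in TAC hearts and was at 0 in all 6 sham libraries. Complement genes rose in 7 of 13 and fell in 4, or 8 and 1 with libraries scaled to the same total. The receptors C3ar1 and C5ar1 rose 5.602- and 5.02-fold.

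Genes that fold proteins in the endoplasmic reticulum mostly rose. Of 20 endoplasmic reticulum folding genes, 14 rose and 3 fell (median 0.55). Manf, a secreted reticulum stress protein, had 216 to 614 normalized counts in TAC hearts (median 483) and 141 to 194 in sham hearts (median 163) (2.71-fold, log2 fold change 1.33 ± 0.21, adjusted p = 3.58e-06), and the disulfide isomerases Pdia4 and Pdia6 rose 2.57- and 2.48-fold. Hspa5, the chaperone BiP, was not called (log2 fold change 0.18 ± 0.11, adjusted p = 0.152), but passed as higher without TAC replicates 1 and 4 (0.27), with libraries scaled to the same total (0.52) and with quantile normalization (0.41). Herpud1, a component of reticulum-associated degradation, had 698 to 1842 normalized counts in TAC hearts (median 1284) and 3299.6 to 5559.5 in sham hearts (median 4119.5) (3.52-fold lower, log2 fold change -1.88 ± 0.25, adjusted p = 2.25e-07), and Atf6 and Dnajb9 fell less (-0.42 and -0.33). In TAC replicates 1 and 4 the mean log2 difference from sham over the list was 0.18 and 0.04, against 0.55 to 0.74 in the other TAC libraries.

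Upstream stretches of 3 of these genes are shown because they hold the endoplasmic reticulum stress element, CCAAT and CCACG separated by 9 bases of any kind, known to be used by ATF6 and XBP1. The fixed letters of a match on either strand are in capitals.
Pdia6, chr12:17266469-17266588, plus strand: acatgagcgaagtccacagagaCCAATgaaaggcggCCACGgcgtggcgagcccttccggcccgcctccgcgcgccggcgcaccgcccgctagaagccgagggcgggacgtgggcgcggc
Hsp90b1, chr10:86705445-86705564, minus strand: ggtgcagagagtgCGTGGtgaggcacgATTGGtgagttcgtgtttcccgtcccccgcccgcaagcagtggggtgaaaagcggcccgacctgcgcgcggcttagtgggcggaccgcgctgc
Hspa5, chr2:34771970-34772089, plus strand: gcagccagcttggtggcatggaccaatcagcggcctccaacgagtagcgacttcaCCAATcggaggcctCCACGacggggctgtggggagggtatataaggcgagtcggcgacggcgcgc
The element was found in 7 of the 16 promoters listed for 16 of the 20 tested members, beside 0.113% of all promoters, and the match shown for Hsp90b1 is on the opposite strand. The element itself contains CCAAT. Of the 7 members with it, Pdia6 rose 2.48-fold and Hsp90b1 1.38-fold. Calr and Creld2 were also higher (log2 fold changes of 0.76 and 0.62). Hspa5, Dnajc3 and Canx were not called, but passed as higher with libraries scaled to the same total (0.52, 0.50 and 0.38). None was lower.

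Other stress lists were mixed. Integrated stress response and folate-linked genes rose in 10 of 18 and fell in 5. Psat1 and Phgdh, which make serine, had 62.1 to 266 normalized counts in TAC hearts (median 169) and 17.2 to 30.8 in sham hearts (median 24.4), and 30.5 to 111 normalized counts in TAC hearts (median 92.4) and 10.1 to 28.2 in sham hearts (median 15.5), and rose 6.42- and 4.697-fold, and the mitochondrial folate enzyme Mthfd2 rose 4.63-fold. Chac1, a glutathione-degrading target of ATF4, fell with 15.3 to 49.3 normalized counts in TAC hearts (median 37.1) and 96.6 to 138 in sham hearts (median 113) (log2 fold change -1.74 ± 0.22, adjusted p = 8.31e-08), Ddit4, an mTORC1 inhibitor, fell 2.21-fold, and Atf4 and Ddit3 were not called (0.29 and -0.14). Atf4 passed as higher without TAC replicates 1 and 4 (0.45), without TAC replicate 1, TAC replicate 4 or sham replicate 1 alone, and with libraries scaled to the same total (0.63). Cytosolic heat shock genes rose in 8 of 15 and none fell, with Hspb1 3.56-fold and Cryab 2.05-fold higher, while Hspa8 and Hsp90ab1 stood at -0.01 and -0.01 and were not called. With libraries scaled to the same total all 15 rose. Hspa1b had 22.4 to 64.9 normalized counts in TAC hearts (median 54.01) and 5.39 to 14.8 in sham hearts (median 10.3), and reads may be shared with its near-identical copy Hspa1a. Hmox1, haem oxygenase 1, had 405 to 2643 normalized counts in TAC hearts (median 1025) and 86.7 to 141 in sham hearts (median 122) (10.4-fold, log2 fold change 3.05 ± 0.40, adjusted p = 1.50e-07), and the mitochondrial antioxidant enzymes Sod2 and Prdx3 fell 1.83- and 1.74-fold.

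Beside 31.3% higher and 31.1% lower over all genes, autophagy and lysosome genes rose in 9 of 25 and fell in 10. Those that rose most were cathepsins, with Ctss at 357 to 1931 normalized counts in TAC hearts (median 1232) and 136 to 210.3 in sham hearts (median 167) (7.03-fold) and Ctsb 2.12-fold higher. Those that fell most were Pink1, a kinase that marks damaged mitochondria (2.39-fold), Ulk1, which starts autophagy (1.79-fold), and Bnip3. The list median was -0.13 and became 0.20 with libraries scaled to the same total, where 12 rose and 7 fell. Proteasome genes hardly moved: 5 of 25 rose and 2 fell, both shares below those of all genes, with a median of 0.03, and with libraries scaled to the same total 24 rose.

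Immediate early genes rose in 12 of 17 and none fell, and TAC and sham libraries were apart for 3 of the 17. Over all genes, libraries were apart for 15.7% with TAC higher and 13.6% with TAC lower. The mean log2 difference from sham over the list was 0.46 in TAC replicate 1, below the 0.50 of sham replicate 1. Egr2 had 32.04 to 172 normalized counts in TAC hearts (median 156) and 4.31 to 10.3 in sham hearts (median 8.03) (15.8-fold, log2 fold change 3.57 ± 0.46, adjusted p = 1.21e-07) and Myc 51.9 to 334 normalized counts in TAC hearts (median 182) and 28.03 to 52.96 in sham hearts (median 45.8) (3.98-fold, log2 fold change 1.70 ± 0.34, adjusted p = 8.75e-05), while Jun and Nr4a1 were not called (0.12 and -0.36). Interferon-stimulated genes rose in 12 of 16 and fell in 1, with libraries apart for 2 of the 16. Quantile normalization left 9 of them higher and 1 lower. Here too TAC replicate 1 (0.18) was below sham replicate 1 (0.24) in the mean over the list. Mx1 rose 10.7-fold and Isg15 2.495-fold, and Rsad2 fell 1.67-fold with TAC and sham libraries apart.

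Clock genes fell in 11 of 18 and rose in 3. Ciart, a repressor of the CLOCK-BMAL1 pair, had 20.95 to 104 normalized counts in TAC hearts (median 52.7) and 187 to 254 in sham hearts (median 239) (3.84-fold lower, log2 fold change -2.13 ± 0.32, adjusted p = 1.21e-06), the output factor Hlf fell 2.71-fold and Nr1d2 2.04-fold, while Arntl and Npas2, on the activating arm, were not called (0.31 and 0.09). The time of day of collection is not given. The stretch before the Ciart start is shown for its 3 copies of CACGTG, the E-box that CLOCK-BMAL1 is known to bind, in capitals.
Ciart, chr3:95882229-95882358, minus strand: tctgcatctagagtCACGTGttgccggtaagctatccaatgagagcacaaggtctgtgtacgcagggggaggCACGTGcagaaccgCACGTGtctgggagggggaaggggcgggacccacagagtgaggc
CACGTG was found in 6 of 20 promoters listed for 15 of the 18 tested clock genes, beside 6.02% of all promoters.

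Glucocorticoid-responsive genes fell in 5 of 10 and rose in 1, and TAC and sham libraries were apart for 2 of the 10. The mean log2 difference from sham over the list was -0.55 in sham replicate 2. That was below TAC replicates 1, 2, 3 and 5 (-0.31 to -0.08) and above TAC replicates 4 and 6 (-0.72 and -0.77). Klf9 had 361 to 1150.4 normalized counts in TAC hearts (median 659) and 1776 to 2370.1 in sham hearts (median 2007) (2.76-fold lower, log2 fold change -1.58 ± 0.20, adjusted p = 1.47e-07), and Tsc22d3, the glucocorticoid-induced leucine zipper, 556 to 1007 normalized counts in TAC hearts (median 904) and 1396 to 2171 in sham hearts (median 2022) (2.18-fold lower, log2 fold change -1.13 ± 0.17, adjusted p = 1.43e-06). Single genes also differed widely among sham hearts. Cdkn1a, a member of the list, was 291 and 316 in sham replicates 2 and 4, against 785 to 1033 in the other sham hearts. Arrdc2, an arrestin-domain protein outside the list and lower in TAC hearts, was 214 and 302 in sham replicates 2 and 4, against 501 to 716. Sham replicates 2 and 4 were the lowest sham libraries for 109 of the 770 genes at least 2-fold lower in TAC hearts. The same share over all genes was not counted, so this number does not show a pattern beyond the genes named. Lcn2, lipocalin 2, was the gene that rose (4.33-fold, log2 fold change 1.72 ± 0.43, adjusted p = 8.60e-04).

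Most vessel markers and all blood markers tested were lower. Endothelial markers were lower in 11 of 15 and higher in none (median -0.51), with Gpihbp1, which anchors lipoprotein lipase on capillaries, at 323 to 761 normalized counts in TAC hearts (median 519.95) and 1024 to 1509 in sham hearts (median 1289) (2.28-fold lower, log2 fold change -1.23 ± 0.19, adjusted p = 1.68e-06), and Pecam1 at -0.42. With libraries scaled to the same total 7 endothelial markers fell and 2 rose, and Pecam1 did not pass. The receptors Flt1 and Tie1 and the ligand Vegfb fell 1.76-, 1.73- and 1.75-fold, and Vegfd rose 2.84-fold. Smooth muscle and pericyte markers were mixed, with 3 of 11 higher and 6 lower, or 5 higher and 4 lower with libraries scaled to the same total. Cnn1, calponin, had 109 to 1001 normalized counts in TAC hearts (median 483) and 14.1 to 25.3 in sham hearts (median 16.1) (25.2-fold, log2 fold change 4.20 ± 0.46, adjusted p = 9.46e-09), and Rgs5, a pericyte marker, fell 1.77-fold. All 7 erythroid markers tested fell, with overlapping libraries. Hbb-bs had 672 to 2367 normalized counts in TAC hearts (median 1065) and 1760.3 to 4419 in sham hearts (median 2718) (log2 fold change -1.30 ± 0.27, adjusted p = 1.10e-04), a gene whose reads can be shared with its near-identical neighbour Hbb-bt.

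Genes of stress hormone signalling were mixed. Of 15 adrenergic, angiotensin and endothelin genes, 3 rose and 7 fell, and with libraries scaled to the same total 7 rose and 5 fell. Adra1a, the alpha-1A adrenergic receptor, had 23.9 to 156 normalized counts in TAC hearts (median 65.5) and 213 to 334 in sham hearts (median 261) (3.68-fold lower, log2 fold change -2.13 ± 0.34, adjusted p = 3.93e-06), the angiotensin receptor Agtr1a fell 1.94-fold, and Adrb1 was not called (0.03). Grk5, a kinase that desensitises such receptors, rose 1.902-fold. Among cardiac transcription factors 3 of 14 rose and 5 fell, and with libraries scaled to the same total 8 rose and 2 fell. Tbx20 rose 1.79-fold, Hopx, a homeodomain-only protein, had 244 to 1184 normalized counts in TAC hearts (median 523) and 1506 to 1953 in sham hearts (median 1749) (2.78-fold lower, log2 fold change -1.68 ± 0.30, adjusted p = 1.64e-05), and Nkx2-5 was not called (0.11).

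**Figure D4:**
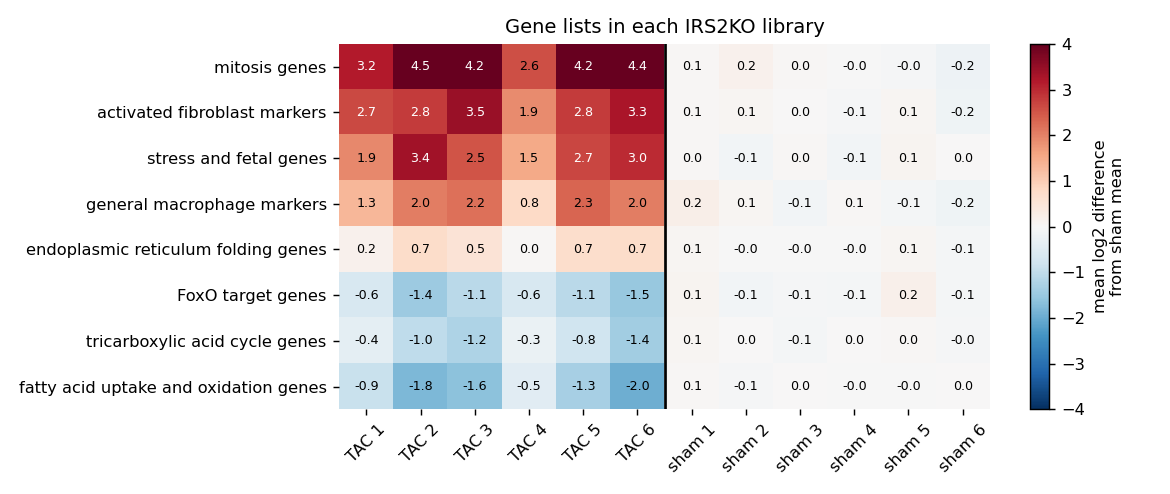
Mean difference in log2(normalized count + 1) from the sham mean over the tested members of 8 gene lists, for each IRS2KO library, TAC on the left and sham on the right. TAC replicates 1 and 4 show the same directions as the other TAC libraries with smaller differences, except for endoplasmic reticulum folding genes in TAC replicate 4. That value (0.04) lies within the sham range of -0.08 to 0.08. Sham libraries stay within 0.24 of their mean in these lists.

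The response was set against that of the other genotypes by testing the difference of the TAC changes. Against WT, no gene of 13695 passed (0%) with limma, edgeR or DESeq2, and 713 (5.21%) had an unadjusted p under 0.05. WT hearts by themselves had 3877 genes higher and 3638 lower after TAC. The difference for Pdk4 did not pass: its log2 fold change was -2.58 in IRS2KO and -0.33 in WT hearts, a difference of -2.26 ± 0.54 (SE, adjusted p = 0.685). Its level after TAC was 5759 ± 2298 in IRS2KO and 18425 ± 7382 in WT hearts, and after sham 32819.8 ± 5529.7 in IRS2KO and 22116 ± 7277 in WT hearts (SD, n = 6, 5, 6 and 6). Klf15 fell by 1.95 in IRS2KO hearts on the log2 scale, with -1.02 in WT hearts (adjusted p of the difference = 0.951), and Tnc rose by 7.53 and 7.44 (adjusted p of the difference = 0.995).

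Against IRS1KO, 56 genes (0.409%) passed, 20 (0.146%) with a more positive and 36 (0.263%) with a more negative change in IRS2KO hearts, and 1566 (11.4%) had an unadjusted p under 0.05. The number was 42 with edgeR and 157 with DESeq2, and, with libraries left out in turn, 17 to 37 for each of IRS2KO TAC replicates 4, 5 and 6, IRS2KO sham replicates 1, 3, 4, 5 and 6, IRS1KO TAC replicates 1, 2, 3 and 4 and IRS1KO sham replicates 1, 2 and 5, 88 for IRS2KO sham replicate 2 and 180 for IRS1KO TAC replicate 5. The 10 genes with the smallest adjusted p were Cd200, Acta2, Nxpe4, Efhd1, Elovl7, Plekha7, Mgp, Phyhip, Limd1 and Glul. Acta2, smooth muscle actin, which myofibroblasts also make, averaged 4419 ± 1030.1 normalized counts after TAC and 1588 ± 206 after sham in IRS2KO hearts, and 5274 ± 937 and 5603 ± 887 in IRS1KO hearts (SD, n = 6 each), a difference of 1.54 ± 0.22 (SE, adjusted p = 4.22e-04). The higher mean of Acta2 in IRS1KO than in IRS2KO sham hearts was not tested. Cd200, a membrane protein that restrains myeloid cells, differed by 1.12 ± 0.16 (adjusted p = 4.22e-04), being 0.17 in IRS2KO and -0.95 in IRS1KO hearts. Mgp, matrix Gla protein, rose in IRS1KO hearts by 1.28 and stood at 0.25 in IRS2KO hearts (adjusted p = 0.00725). Glul, glutamine synthetase, stood at -0.18 in IRS2KO and 0.65 in IRS1KO hearts (adjusted p = 0.00963). Nxpe4 and Plekha7 had unlike means in the genotypes after either surgery, which was not tested: Nxpe4 averaged 195 after TAC and 221 after sham in IRS2KO hearts, against 19.9 and 7.497 in IRS1KO hearts, and Plekha7 50.7 and 27.1, against 348 and 458.

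Of 898 list members tested, 5 differed from IRS1KO: Acta2, Trp53inp1, Chac1, Bnip3 and Gabarapl1. The last 4 fell in IRS2KO hearts. Trp53inp1, a p53 target that also acts in autophagy, averaged 217 ± 52.4 after TAC and 501 ± 129 after sham in IRS2KO hearts and 364 ± 150.2 and 291 ± 49.9 in IRS1KO hearts (SD, n = 6 each), a difference of -1.46 ± 0.28 (SE, adjusted p = 0.00963). Bnip3, a mitophagy receptor, and Gabarapl1 differed by -0.79 ± 0.19 and -0.66 ± 0.15 (adjusted p = 0.0446 and 0.0443), and Chac1 by -1.34 ± 0.31 (adjusted p = 0.0443). The calls of these 3 genes lay close to the threshold: each was lost with no filter on low genes (adjusted p = 0.0604), with only the groups compared in the fit, and in 17 of 24 fits that left out 1 library. The call of Bnip3 was lost with edgeR as well (adjusted p = 0.0616), those of Bnip3 and Gabarapl1 with quantile normalization, and that of Chac1 with libraries scaled to the same total, whereas Trp53inp1 passed in all of these fits.

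With limma on the whole set of libraries, no glucocorticoid-responsive gene passed for either difference. Their median log2 fold change was -0.56 in IRS2KO, 0.19 in IRS1KO and 0.29 in WT hearts. An unadjusted p under 0.05 was found for 9 of 10 in the difference from IRS1KO and for 5 in that from WT. Over all genes the shares were 11.4% and 5.21%. Such counts were above these shares in other lists as well. For the difference from IRS1KO they were 7 of 16 FoxO targets and 5 of 6 antigen presentation and dendritic cell markers. For the difference from WT, 6 of 16 FoxO targets had an unadjusted p under 0.05. Fkbp5, a co-chaperone of the glucocorticoid receptor, averaged 819.9 ± 322 after TAC and 1029 ± 405 after sham in IRS2KO hearts, 1307 ± 644 and 399 ± 185 in IRS1KO hearts, and 1327 ± 675 and 716 ± 181 in WT hearts (SD; n = 6, with 5 for WT TAC; adjusted p of the difference from IRS1KO = 0.0779). This difference of Fkbp5 passed with DESeq2 (adjusted p = 0.0184), and with limma without IRS2KO sham replicate 2 (adjusted p = 0.037) or without IRS1KO TAC replicate 5 (adjusted p = 0.0236). FoxO targets had medians of -0.93 in IRS2KO, -0.64 in IRS1KO and -0.63 in WT hearts. For fatty acid genes the medians were -1.26, -1.25 and -0.94, for mitosis genes 3.88, 4.0 and 3.82, and no test of a list was made.

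**Figure D5:**
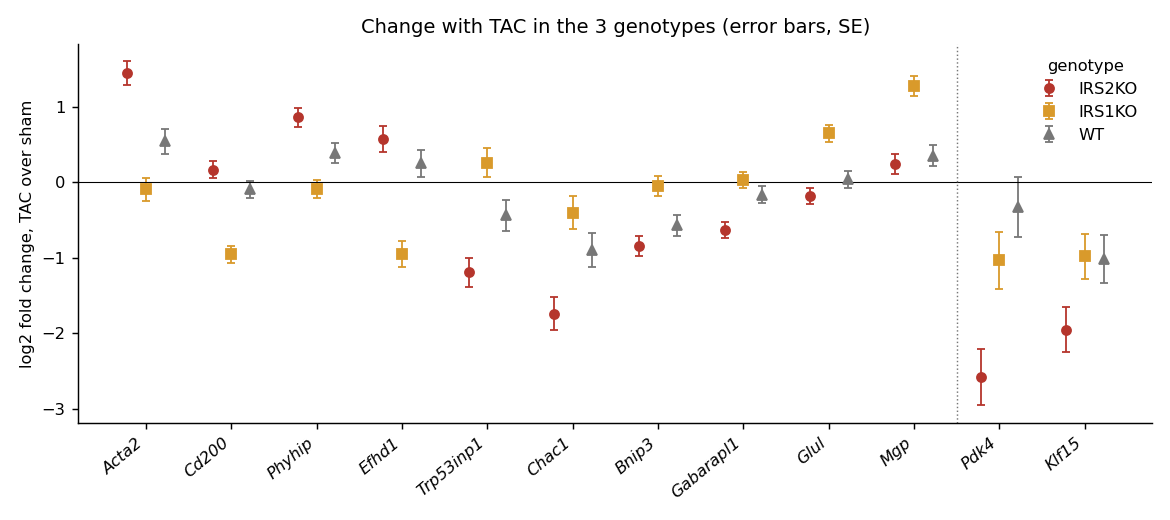
Log2 fold change, TAC over sham, with SE, in IRS2KO, IRS1KO and WT hearts for 10 genes whose IRS2KO and IRS1KO changes differed at an adjusted p under 0.05 (left of the dotted line) and for Pdk4 and Klf15 (right), whose differences did not pass. Acta2 rises in IRS2KO hearts and stays at -0.09 in IRS1KO hearts, and Trp53inp1 falls in IRS2KO hearts.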

How the data were processed

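Gene-level mRNA of the heart apex was measured in 35 libraries of 6 groups. The deposited table holds a signal per gene, the authors' read count divided by a size factor per library, called normalized counts here. Per the submitters' processing notes, HISAT2 2.0.6, HTSeq 0.7.1, DESeq2 and GRCm38 were used, and settings such as strand are not given in the sources used here. All values came out as whole reads within 0.001 when divided by the value of 1 read, which gave 11707111 to 14609467 reads per library. Symbols came from the GENCODE annotation for 26904 of 27012 IDs (99.6%).

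Values were analysed as log2(normalized count + 1) with limma 3.58.1 (R 4.3.3; trend and robust settings) in 1 model over the 6 groups, for genes with a mean of at least 10, with Benjamini-Hochberg adjustment over all genes tested. All adjusted p-values are from limma unless another tool is named. The pseudocount understates changes of low genes. Fold changes of single genes in words are ratios of group means, with no ratio where a mean is under 3. Counts of genes at least 2-fold or 4-fold higher or lower use limma's log2 fold change instead, and the 2 measures can differ near the limit. Recovered reads were also tested with edgeR 4.0.16 and DESeq2 1.42.0, and the fit was tested on simulated data. Other alternatives were pseudocounts, filters, scalings, library weights, a replicate block and leaving out each library.

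The genes named are Irs1, Irs2, Pdk4, Klf15 and Tnc, the 15 largest rises and 15 largest falls, members of 59 gene lists, and up to 10 genes per difference of response. Some genes that this rule names are not reported here. Genes and lists were chosen with earlier results of these data known.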

Additional observations from a re-analysis of the deposited data

Results flagged for a closer look

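A library far from the others of its group was looked for in 474 groups of 6 values, TAC and sham for each gene named, with Dixon's test on log2(normalized count + 1), and 20 groups had such a library. Chance gives this in about 1 of 20 groups. Among TAC hearts, the high values were those of Efhd1 in replicate 1 (50.6) and Tcf21 in replicate 1 (151), in normalized counts. Among TAC hearts, the low values were those of Cdkn1a in replicate 4 (278), Cx3cr1 in replicate 4 (78.4), Ppard in replicate 3 (299.8) and Tsc22d3 in replicate 6 (556), in normalized counts. Among sham hearts, the high values were those of Arg1 in replicate 1 (2.46), Col11a1 in replicate 2 (2.13), Cox6a1 in replicate 1 (846), Foxo1 in replicate 3 (472) and Isg15 in replicate 1 (47.97), in normalized counts. Among sham hearts, the low values were those of Igf1r in replicate 6 (495), Itgax in replicate 6 (0), Pdk2 in replicate 6 (5299.9), Pdpk1 in replicate 1 (717), Ppara in replicate 1 (364), Ryr2 in replicate 1 (23986), Sod2 in replicate 3 (7005), Sprr1a in replicate 5 (0) and Wif1 in replicate 6 (10.8), in normalized counts.

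The TAC change differed between IRS2KO and IRS1KO hearts, by the test of the difference itself in limma at an adjusted p under 0.05, for 14 genes named here. On the log2 scale, IRS2KO minus IRS1KO, the difference was positive for Elovl7 (3.64), Acta2 (1.54), Efhd1 (1.53), Plekha7 (1.29), Cd200 (1.12) and Phyhip (0.95), and negative for Nxpe4 (-1.55), Trp53inp1 (-1.46), Chac1 (-1.34), Mgp (-1.03), Glul (-0.83), Bnip3 (-0.79), Limd1 (-0.79) and Gabarapl1 (-0.66). Over the alternatives, the adjusted p for Cd200 stayed between 1.29e-07 and 0.00233 and that for Acta2 between 5.93e-08 and 0.00701, whereas those for Bnip3, Chac1 and Gabarapl1 reached 0.114, 0.0994 and 0.0982.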

How the results depend on the processing

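Counts of genes changed by TAC depended on the scaling. With libraries given equal totals, 7438 genes were higher and 1890 lower (79.7% of calls higher, against 50.2% with the authors' scaling), of which 2213 and 374 by at least 2-fold, and with quantile normalization 43.8% of calls were higher. With a minimum mean of 50 normalized counts, which tests fewer genes, 875 were higher by at least 2-fold, and without TAC replicates 1 and 4, chosen after seeing the data, 1318 were lower by at least 2-fold. List counts then moved by at most 3 members. Leaving out 1 library gave 3957 to 4464 genes higher, 3913 to 4458 lower, 1386 to 1665 higher and 608 to 1007 lower by at least 2-fold, a log2 fold change of -0.22 to 0.03 for Irs1 and -0.24 to 0.02 for Irs2, and a mitochondrial share lower by 8.22 to 10.7 percentage points (values of -8.216 to -10.69). The number differing from WT was 0 throughout. The number differing from IRS1KO was 26 with no filter, 25 with the same total, 34 with quantile normalization, 21 with only the groups compared, 138 with library weights (limma's arrayWeights), 157 with DESeq2, and 17 to 180 with 1 library left out. The cause was not tested. With libraries scaled to the same total the calls of Atf6, Col4a4, Cpt1a, Dcn, Dnajb9, Limd1, mt-Atp8, Pecam1 and Ryr2 were lost, and with quantile normalization those of Efhd1, Elovl7 and Myh6. The same total also gave calls to 23 genes named here that had none, all as higher (Actn2, Adrb1, Atf4, Bag3, Bcl6, Canx, Cd200, Dnajc3, Folr2, Hk2, Hsp90ab1, Hspa5, Hspa8, Igf1r, Jun, Mgp, Nkx2-5, Pdgfra, Pdpk1, Pkm, Ppard, Sesn3 and Tnnc1), and quantile normalization to 10, of which Timd4 was lower and the others, Actn2, Atf4, Dnajc3, Hk2, Hsp90ab1, Hspa5, Hspa8, Mgp and Pkm, were higher. Without TAC replicates 1 and 4, Akt1, Bcat2, Lyve1, Mmp2 and Timd4 gained a call as lower and Atf4, Bcl6, Dnajc3 and Hspa5 as higher. With library weights all of these except Hspa5 gained a call in the same direction. Lyve1 also gained a call as lower with only the groups compared, and Bcl6 as higher with a pseudocount of 5 or a minimum mean of 50. The call of Angptl4 was lost with no filter (adjusted p = 0.0912, limma). With edgeR or DESeq2 the call of Bcl6 was gained, and no other named gene's TAC call changed. With 1 library left out, calls were also gained as lower by Lyve1 (without TAC replicate 1, 2 or 4 or sham replicate 2), Timd4 (TAC replicate 1 or 4) and Glul (TAC replicate 2), and as higher by Folr2 (TAC replicate 3 or sham replicate 3 or 5), Hk2 (TAC replicate 3), Dnajc3 (TAC replicate 4) and Mgp (TAC replicate 6), and that of Cpt1a was lost without TAC replicate 2. Gains of Akt1, Atf4, Bcl6 and Mmp2 are given beside their values.

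Replicate numbers are shared between groups, but nothing says that a number marks a shared mouse, litter or day. Deviations of TAC and sham libraries with the same number correlated at -0.08 to 0.17 across genes, and with the replicate block 4384 genes were higher and 4432 lower, 65 differed from IRS1KO and 0 from WT. The difference of Fkbp5 from IRS1KO passed with the block (adjusted p = 0.0473, limma).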
